A study of Arabidopsis thaliana with 6 samples.

Results

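Suberin is a polyester of fatty acids, fatty alcohols, glycerol and ferulic acid that mature endodermal cells of the root lay down around themselves, and it limits the passage of water and solutes. The 10 genes described here were chosen by locus identifier as 9 enzymes of suberin synthesis and 1 transporter, out of 33233 gene loci in the gene comparison. All 10 had a line of their own there. They cover very-long-chain fatty acid elongation (KCS20 and KCS2), oxidation of the chain end (CYP86A1 and CYP86B1), reduction to fatty alcohols (FAR1, FAR4 and FAR5), transfer to glycerol (GPAT5), transfer of ferulate (ASFT) and export (ABCG6).

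RNA was sequenced from roots of wild-type Arabidopsis thaliana Col-0 seedlings, grown for 8 days in constant light, in 2 sections of the apex. Zone II was a section of 1.5 mm and zone I the apical section of 0.5 mm, with 3 libraries per zone. The labels do not say whether the libraries came from separate plants. The data analysed here are the authors' own Cuffdiff comparisons, which give for each gene or isoform a log2 fold change of a condition named experiment over one named control, a p and a q. They hold no value per library, so no SD can be given and the depth of each library is unknown.

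No label puts a zone on either condition, and none is put on them here. A level could not be tied to a labelled group either, so no expression level is given, and detection is read from the fold change alone. An infinite fold is a gene listed at 0 in control, and its negative counterpart a gene listed at 0 in experiment. A fold of exactly 0 without a test is what Cuffdiff writes where both conditions are at 0. It is read here as no signal, without a check against the condition values. Of 18050 tested loci, 43.6% were called in the authors' deposited table at the threshold that the authors set, a q under 0.01, with 22.3% higher and 21.2% lower in experiment. All 4 root hair genes examined were higher, all 4 mitosis genes were lower, and 3 of 4 root cap genes were lower, by the same threshold. These lists were written with results of these data known and test nothing about the zones.

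Suberin synthesis begins with elongation of fatty acids in the endoplasmic reticulum. The chains are then hydroxylated at their ends by cytochrome P450 enzymes or reduced to alcohols, esterified to glycerol or ferulate, and exported by half-size ABCG transporters. Suberin lamellae form after the Casparian strip, a lignin band in the endodermal wall, and R2R3-MYB transcription factors are known to control the genes.

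Most suberin genes lay outside the range that Cuffdiff tested. In the authors' deposited table, ASFT and KCS20 were the 2 of 10 members with a test, whereas 65.4% of 26066 protein-coding loci of 1 gene had one. KCS20 was called, higher in experiment, and ASFT was not called. Set beside the 22.3% of tested loci called higher, 1 call among 2 tested members shows nothing particular to suberin genes. CYP86A1, GPAT5 and FAR1 had a fold of exactly 0 and no test in the authors' deposited table, as had 20.2% of those protein-coding loci. The other 7 members were above 0 in at least 1 condition, and 5 of these had no test. In whole sections, fewer cells of a type and less RNA per cell cannot be told apart, which holds for every change given here.

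**Figure D1:**
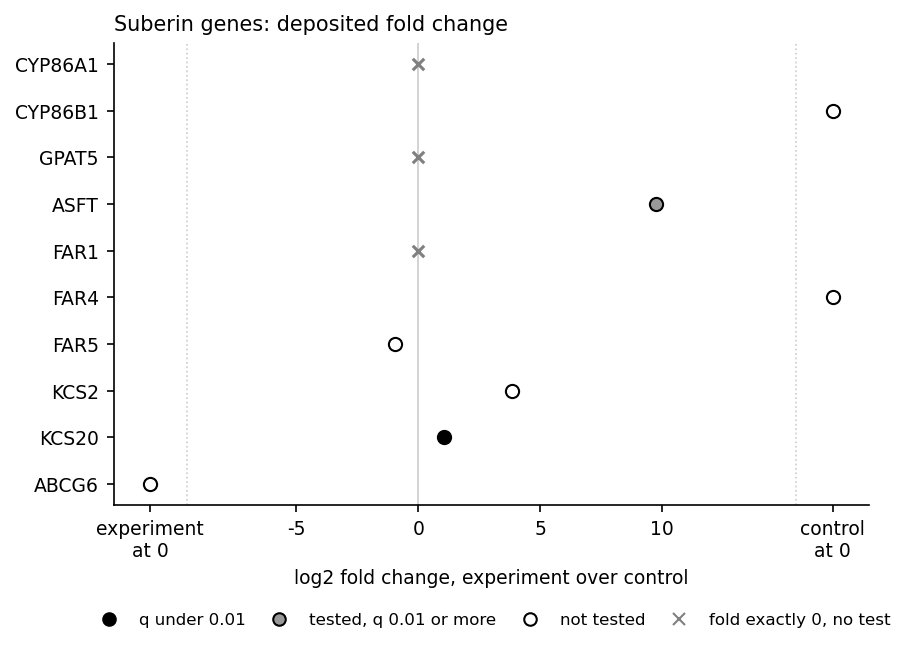
Log2 fold change of the 10 suberin genes, experiment over control, from the authors' deposited table, with 1 value per gene and no error. Genes listed at 0 in 1 condition are drawn at the edges, black marks a q under 0.01, grey a tested gene above it, white no test, and a cross a fold of exactly 0 without a test. KCS20 at 1.04 is the black point and ASFT at 9.75 the grey one.

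The promoter windows of the 2 tested members and of 2 members with no signal in either condition are shown to set their sequences side by side. Each is the stretch of 250 bases before the annotated gene start in RefSeq TAIR10.1, read 5′ to 3′ on the gene's strand. Capitals mark matches, on either strand, to 4 forms of the AC element that plant MYB factors are known to bind.
ASFT (chr5:16431054-16431303, plus strand): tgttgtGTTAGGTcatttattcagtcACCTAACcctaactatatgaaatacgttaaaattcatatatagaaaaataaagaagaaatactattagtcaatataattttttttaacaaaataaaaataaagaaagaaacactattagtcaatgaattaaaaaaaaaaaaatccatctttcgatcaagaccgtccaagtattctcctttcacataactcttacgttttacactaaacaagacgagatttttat
KCS20 (chr5:17585273-17585522, plus strand): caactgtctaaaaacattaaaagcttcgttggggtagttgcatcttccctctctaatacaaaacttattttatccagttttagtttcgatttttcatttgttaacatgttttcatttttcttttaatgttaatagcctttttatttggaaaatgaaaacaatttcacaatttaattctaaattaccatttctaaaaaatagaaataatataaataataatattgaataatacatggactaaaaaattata
CYP86A1 (chr5:23768112-23768361, minus strand): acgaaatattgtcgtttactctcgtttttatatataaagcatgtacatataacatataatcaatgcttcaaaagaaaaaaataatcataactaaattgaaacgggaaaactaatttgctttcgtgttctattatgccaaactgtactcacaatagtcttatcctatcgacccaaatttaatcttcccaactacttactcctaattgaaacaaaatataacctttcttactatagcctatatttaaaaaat
GPAT5 (chr3:3595444-3595693, plus strand): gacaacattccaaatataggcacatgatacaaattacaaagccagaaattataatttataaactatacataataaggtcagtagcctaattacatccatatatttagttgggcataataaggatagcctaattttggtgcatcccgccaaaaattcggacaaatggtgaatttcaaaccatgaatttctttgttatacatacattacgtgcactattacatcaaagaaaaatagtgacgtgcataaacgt
The first form searched was ACCTACC and the second was ACCAACC, while ACCTAAC was the third form and ACCAAAC the last. ASFT held 2 matches, both to the third form, on opposite strands and without overlap, with their first bases 244 and 224 bases before the gene start. The other 9 members held no match in this window. Among 27443 such windows of protein-coding genes, 13.7% held at least 1 of the 4 forms and 2.46% held the third form. A match describes letters and shows no binding.

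ASFT transfers ferulate from feruloyl-CoA to the hydroxyl ends of suberin monomers. ASFT (AT5G41040) had by far the widest finite fold among the members, a log2 fold change of 9.75 in the authors' deposited table, yet it missed the threshold (Cuffdiff p = 0.2375, q = 0.304). Folds of this size were seldom called anywhere in the comparison. Of 50 tested loci with a log2 fold change from 9 to under 11, 2 were called and the median q was 0.297 in the authors' deposited table. Whether 1 library carried the fold cannot be read from a comparison without library values.

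The isoform comparison split ASFT into 3 isoforms. One was listed at 0 in control, without passing the threshold (Cuffdiff p = 0.09275, q = 0.251, the authors' deposited table). Another had a log2 fold change of 8.12 (Cuffdiff p = 0.1645, q = 0.346, the authors' deposited table), and the remaining one showed no signal in either condition. Both tested isoforms thus had the direction of the gene, and neither was called. ASFT lies on chromosome 5 from 16431304 to 16433305 on the plus strand in RefSeq TAIR10.1, a protein-coding gene of 4 exons. Its end overlaps AT5G41050 on the other strand by 63 bases, its assembled locus reaches 1013 bases past the annotated gene, and the libraries do not mark strand, so its value is uncertain. AT5G41050 had a log2 fold change of -0.14 without a test in the authors' deposited table, and its part in the value of ASFT was not tested.

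KCS20 is a condensing enzyme of very-long-chain fatty acid elongation and works in part redundantly with KCS2 in root suberin. KCS20 (AT5G43760) rose in experiment with a log2 fold change of 1.04 in the authors' deposited table (Cuffdiff p = 5e-05, q = 0.000177), at the smallest p that Cuffdiff gave in the comparison. No other suberin gene was called. KCS20 has 1 isoform in the isoform comparison, whose log2 fold change of 0.71 missed the threshold (Cuffdiff p = 0.0899, q = 0.246, the authors' deposited table). The direction was the same in both comparisons, and the call was made at gene level alone. The listed locus spans 5773 bases for the isoform and 3048 bases for the gene. The 2 comparisons gave unlike values for a gene of 1 isoform and are not interchangeable, for a reason that was not tested. KCS20 lies on chromosome 5 from 17585523 to 17588733 on the plus strand in RefSeq TAIR10.1, and no annotated gene overlaps it.

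KCS2 (AT1G04220), the close relative of KCS20, gave unlike values in the 2 comparisons. At gene level its log2 fold change was 3.85 without a test, and its 1 tested isoform stood at 0.04 (Cuffdiff q = 0.978), both in the authors' deposited table. The assembled locus behind the gene value reaches 5294 bases past the annotated gene and overlaps that of AT1G04210, which fell by 0.99 on the log2 scale (Cuffdiff q = 0.000491, the authors' deposited table). In the isoform comparison the locus of KCS2 spans 38241 bases. AT1G04210 and AT1G04247 overlap KCS2 on the other strand in RefSeq TAIR10.1, by 2343 bases in sum, so both values of KCS2 are uncertain.

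The coding sequences of KCS20 and KCS2 are 84.6% identical over 1554 aligned bases. Their longest identical run, of 53 bases, is shown with its flanks as the stretch where the pair is most alike. Capitals mark the run, with 20 bases of coding sequence on either side, from RefSeq TAIR10.1 (KCS20 coding positions 1379 to 1471 and KCS2 coding positions 1355 to 1447, counted from the start codon).
KCS20: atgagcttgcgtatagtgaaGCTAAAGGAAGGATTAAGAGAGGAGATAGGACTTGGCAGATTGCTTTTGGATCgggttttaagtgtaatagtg
KCS2: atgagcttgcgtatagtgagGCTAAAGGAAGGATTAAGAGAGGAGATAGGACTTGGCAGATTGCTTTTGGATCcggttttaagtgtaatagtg
The genes lie on different chromosomes, KCS20 on 5 and KCS2 on 1.

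The chain-end oxidases make the hydroxy acids and diacids that dominate suberin, and neither had a test. CYP86A1 (AT5G58860), the hydroxylase of long-chain acids, had a fold of exactly 0 in both comparisons of the authors' deposited table. CYP86B1 (AT5G23190), the hydroxylase of very-long-chain acids, was listed at 0 in control and above 0 in experiment by both comparisons of the authors' deposited table. GPAT5 (AT3G11430), the acyltransferase that links such acids to glycerol, had a fold of exactly 0 in both comparisons of the authors' deposited table. Without counts, a listed 0 gives no upper limit and does not show absence.

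The reductases FAR1, FAR4 and FAR5 make the primary alcohols of suberin, each with its own preferred chain length. FAR1 (AT5G22500) showed no signal at gene or isoform level in the authors' deposited table, and AT5G22505 overlaps it on the other strand by 1310 bases. FAR4 (AT3G44540) was listed at 0 in control at gene level, as was 1 of its 2 isoforms, and the other isoform showed no signal in the authors' deposited table. AT3G06845 overlaps FAR4 on the other strand by 198 bases, so its listed value is uncertain. FAR5 (AT3G44550) had a log2 fold change of -0.96 at gene level and -0.89 for its 1 isoform in the authors' deposited table, both without a test. FAR4 and FAR5 are neighbours on chromosome 3. The listed directions of FAR4 and FAR5 differed, but neither gene had a test. Their coding sequences are 74.4% identical over 1475 aligned bases and share no run longer than 17 bases.

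ABCG6 (AT5G13580) is a half-size transporter of the clade known to be needed for suberin barriers. At gene level it was listed at 0 in experiment and above 0 in control, without a test, in the authors' deposited table. One of its 2 isoforms was tested, with a log2 fold change of 0.07 (Cuffdiff q = 0.918, the authors' deposited table), and was thus above 0 in both conditions. The 2 comparisons thus conflict at ABCG6. The listed locus spans 8665 bases for that isoform and 2510 bases for the gene, and why the values differ was not tested. At the other members the comparisons gave the same listed direction at both levels, or no signal at either.

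Over the 10 genes there were 15 isoforms, of which 7 showed no signal and 5 were tested. None was called at a q under 0.01, nor at one under 0.05, and none had an unadjusted Cuffdiff p under 0.05 (lowest 0.0899) in the authors' deposited table. Of all tested isoforms, 16.8% were called.

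**Figure D2:**
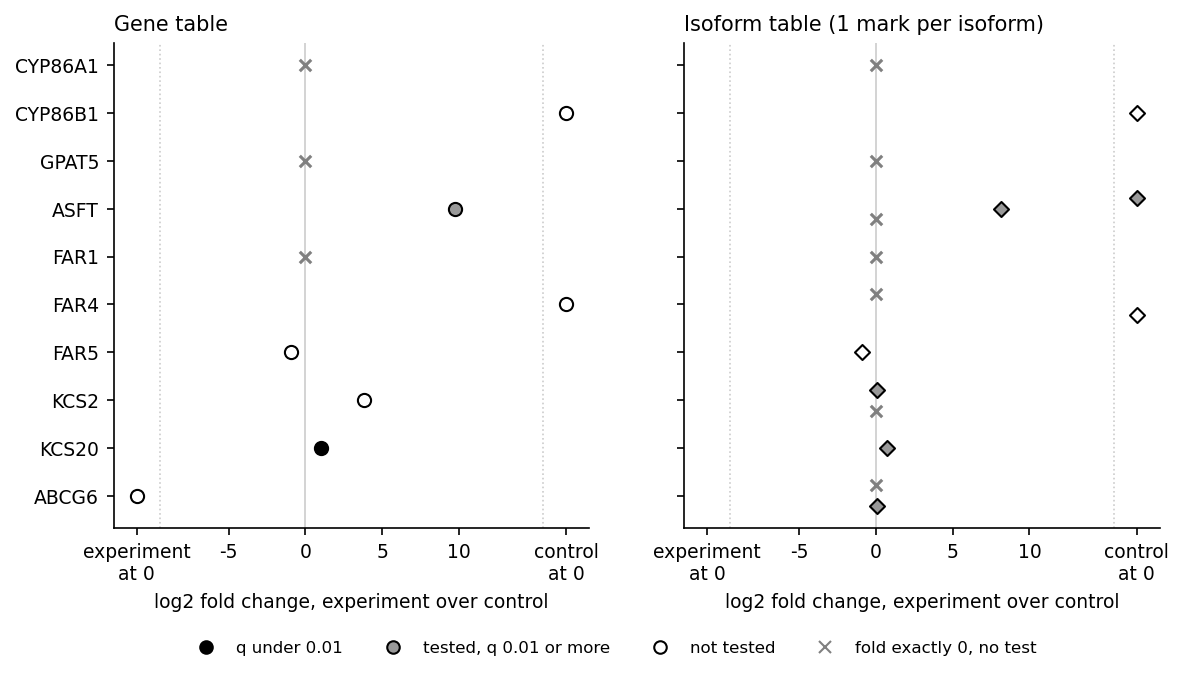
Log2 fold change of each suberin gene at gene level (left) and of its isoforms (right, 1 diamond per isoform), experiment over control, from the authors' deposited table, without errors. Genes or isoforms listed at 0 in 1 condition are at the edges. KCS2 stands at 3.85 on the left and 0.04 on the right, and ABCG6 moves from the left edge to 0.07.

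The median log2 fold change over the 7 members with signal was 3.85 in the authors' deposited table, counting genes listed at 0 in 1 condition at the far ends, against -0.0055 over the 22475 loci with signal. That median is the untested and uncertain value of KCS2 itself. With the tested isoforms of KCS2 and ABCG6 in place of their gene values, a choice made after seeing the data, it was 1.04. By direction, CYP86B1, ASFT, FAR4, KCS2 and KCS20 were listed higher in experiment, and FAR5 and ABCG6 lower. Of these, KCS20 alone is a change that passed the test.

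**Figure D3:**
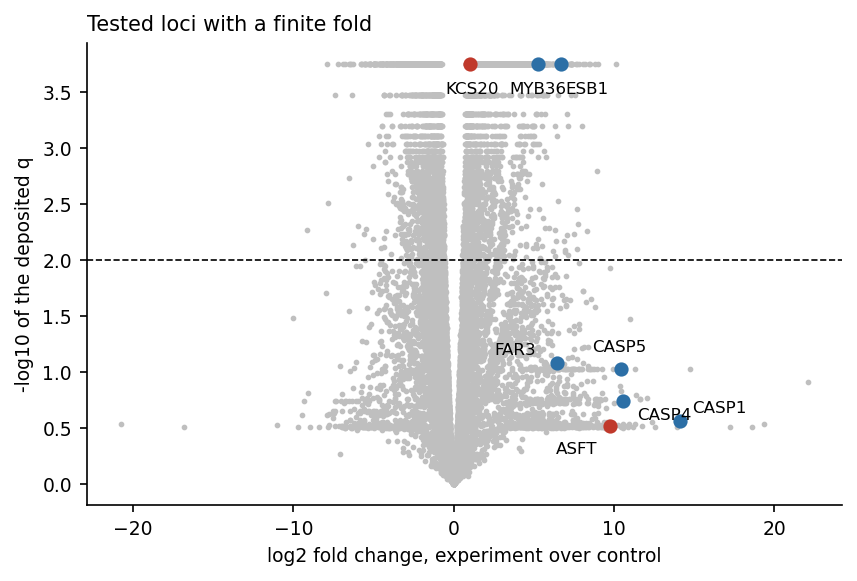
Log2 fold change, experiment over control, and -log10 of q for each tested locus with a finite fold in the authors' deposited table (grey), with the 2 tested suberin genes in red and genes of related lists in blue. The dashed line is a q of 0.01. KCS20 lies above it at 1.04, while ASFT at 9.75 and CASP1 at 14.11 lie below it.

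Of the R2R3-MYB factors known to act on suberin genes, 8 were listed and 6 were tested, where 65.4% of protein-coding loci had a test. Of the 6, 5 were called higher and none lower in the authors' deposited table, beside 22.3% higher and 21.2% lower over all tested loci. MYB9, MYB39 and MYB93 were listed at 0 in control and called (Cuffdiff q = 0.000177 each, the authors' deposited table). MYB92 rose with a log2 fold change of 1.85 (Cuffdiff q = 0.000177, the authors' deposited table), but its assembled locus reaches 4328 bases past the annotated gene, so its value is uncertain. MYB70, known to hold back suberin synthesis, rose with a log2 fold change of 1.57 (Cuffdiff q = 0.00171, the authors' deposited table). Each of these 5 regulators also had a called isoform, higher in experiment. Calls were common at such values. Of all tested loci listed at 0 in control, 87.1% were called. With a log2 fold change from 1 to under 3, 72.7% were. The regulators were also chosen with results known, so their count tests nothing about them as a group.

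MYB53 missed the threshold at a log2 fold change of -2.18 (Cuffdiff q = 0.0857, the authors' deposited table). MYB107 was listed at 0 in experiment and MYB41, induced by drought and abscisic acid, had a fold of exactly 0, neither with a test in the authors' deposited table.

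**Figure D4:**
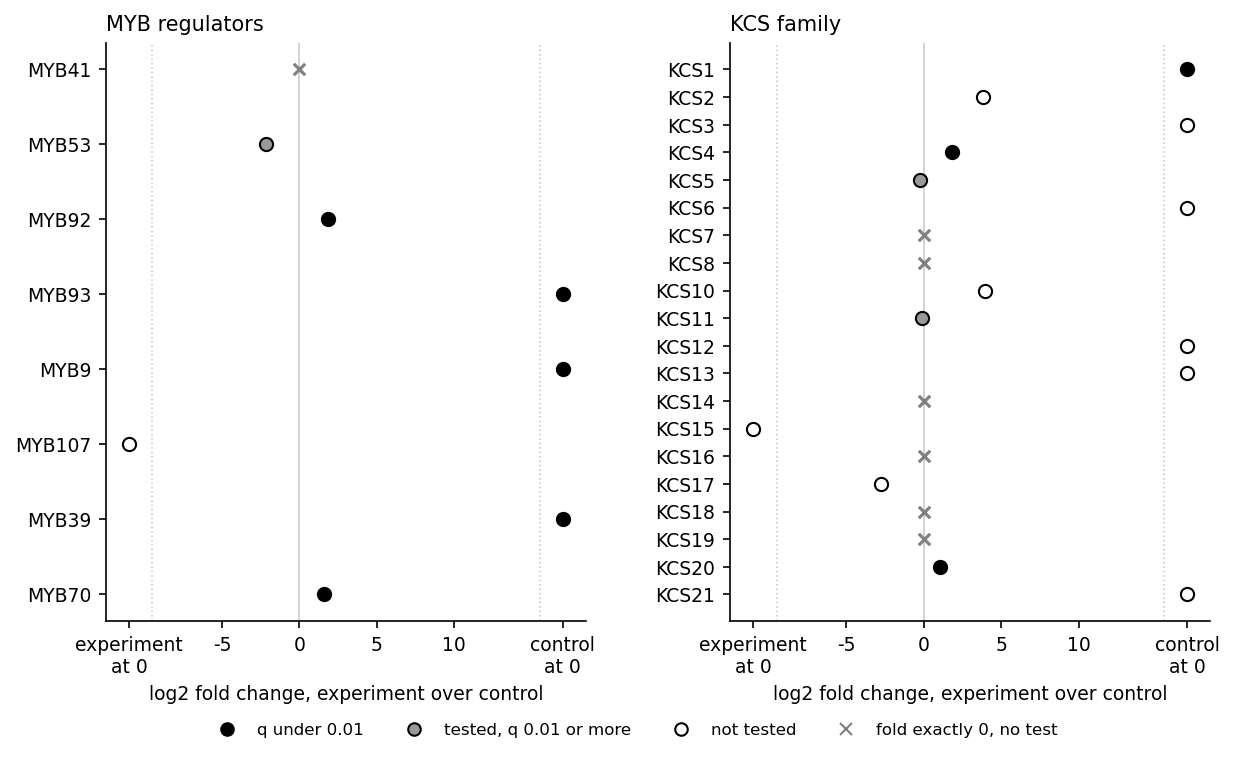
Log2 fold change, experiment over control, of 8 MYB regulators (left) and of 20 KCS genes with a locus of their own (right) from the authors' deposited table, without errors. Genes listed at 0 in 1 condition are at the edges and black marks a q under 0.01, which 5 regulators and 3 KCS genes reached, all higher in experiment.

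KCS enzymes set the chain length of the acids that enter suberin, wax and membrane lipids, and the family shows how KCS20 stood among its relatives. Of 20 KCS genes with a locus of their own 5 were tested, a smaller share than the 65.4% of protein-coding loci. Of the 5, KCS20 included, 3 were called higher and none lower in the authors' deposited table, beside 22.3% and 21.2% of all tested loci. Beside KCS20, KCS4 rose with a log2 fold change of 1.83 (Cuffdiff q = 0.000177, the authors' deposited table). KCS1, also known to act in wax synthesis, was listed at 0 in control and called (Cuffdiff q = 0.000177, the authors' deposited table). KCS5 at -0.24 (Cuffdiff q = 0.662) and KCS11 at -0.13 (Cuffdiff q = 0.681) missed the threshold in the authors' deposited table, and for each the tested isoform of lowest q had a fold above 0. The locus of KCS11 also overlaps that of AT2G26650. Another 6 of the 20 KCS genes had a fold of exactly 0 without a test, beside 20.2% of protein-coding loci of 1 gene. KCS9 was split over 2 loci and is left out of the count.

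The other enzymes of the elongase complex, which serve all KCS enzymes, had folds below 0 and were not called. The log2 fold change was -0.38 for the ketoacyl reductase KCR1 (Cuffdiff q = 0.0979, the authors' deposited table). The enoyl reductase CER10 stood at -0.55 (Cuffdiff q = 0.0154, the authors' deposited table). The dehydratase PAS2 stood at -0.52 (Cuffdiff q = 0.0325, the authors' deposited table).

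Among 12 further genes of suberin synthesis and export, 4 were tested and 2 were called, both higher in the authors' deposited table, where 22.3% of tested loci were. They were KCS1, already counted in the KCS family, and AT2G48130, a lipid-transfer family gene. AT2G48130 had a log2 fold change of 6.86 (Cuffdiff q = 0.00674, the authors' deposited table), and no isoform of it was called. The transporters ABCG2 at 0.98 (Cuffdiff q = 0.445) and ABCG20 at -0.86 (Cuffdiff q = 0.193) missed the threshold in the authors' deposited table, and the locus of ABCG2 overlaps that of AT2G37362. In the FAR family list of 8, FAR3, known for cuticular wax alcohols, was the 1 gene with a test, at 6.43 (Cuffdiff q = 0.0835, the authors' deposited table). Of the 8, 4 showed no signal. Beside both lists, 65.4% of protein-coding loci of 1 gene had a test and 20.2% had a fold of exactly 0 without one.

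Cutin is the related polyester of the epidermis, made by relatives of the suberin enzymes. Of 17 cutin genes 5 were tested, a smaller share than the 65.4% of protein-coding loci. Of the 5, 1 was called higher and none lower in the authors' deposited table, a share near the 22.3% of all tested loci called higher. The called gene was GPAT8, a glycerol acyltransferase, with a log2 fold change of 3.22 (Cuffdiff q = 0.00490, the authors' deposited table). Its close relative GPAT4 stood at 6.67 (Cuffdiff q = 0.172) and HTH at -3.86 (Cuffdiff q = 0.311) without passing in the authors' deposited table. The median over the tested cutin genes was 0.90 on the log2 scale. ABCG11 had a fold of exactly 0 without a test at gene level, whereas its 1 isoform did not, so that reading is uncertain there.

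Genes of the endodermis and its Casparian strip, the stage before suberin, were all within the tested range. Of these 11 genes 3 were called higher and none lower in the authors' deposited table, and 10 of 11 had a fold above 0. The share called higher is near the 22.3% of all tested loci called higher, so that count shows nothing particular to endodermal genes. Of all tested loci, 21.2% were called lower. The median log2 fold change of the list was 10.44, counting genes listed at 0 in control at the far end. Over all tested loci it was -0.032. Of tested loci with a log2 fold change of 9 or more, 2.99% were called, so the count says little about folds of that size. CASP2, a scaffold protein of the strip, was listed at 0 in control and called (Cuffdiff q = 0.000177, the authors' deposited table). The regulator MYB36 rose with a log2 fold change of 5.27 and the dirigent-like ESB1 with one of 6.69 (Cuffdiff q = 0.000177 each, the authors' deposited table). CASP1 missed the threshold at 14.11 (Cuffdiff q = 0.273, the authors' deposited table), as ASFT did at its own fold. The loci of CASP1 and ESB1 overlap those of neighbouring genes, AT2G36090 and AT2G28671, so their values are uncertain. SCR, an endodermal identity factor, was the 1 gene of the list with a fold below 0, at -0.53 (Cuffdiff q = 0.0385, the authors' deposited table). Whether endodermal RNA had a part in the fold of ASFT was not tested.

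**Figure D5:**
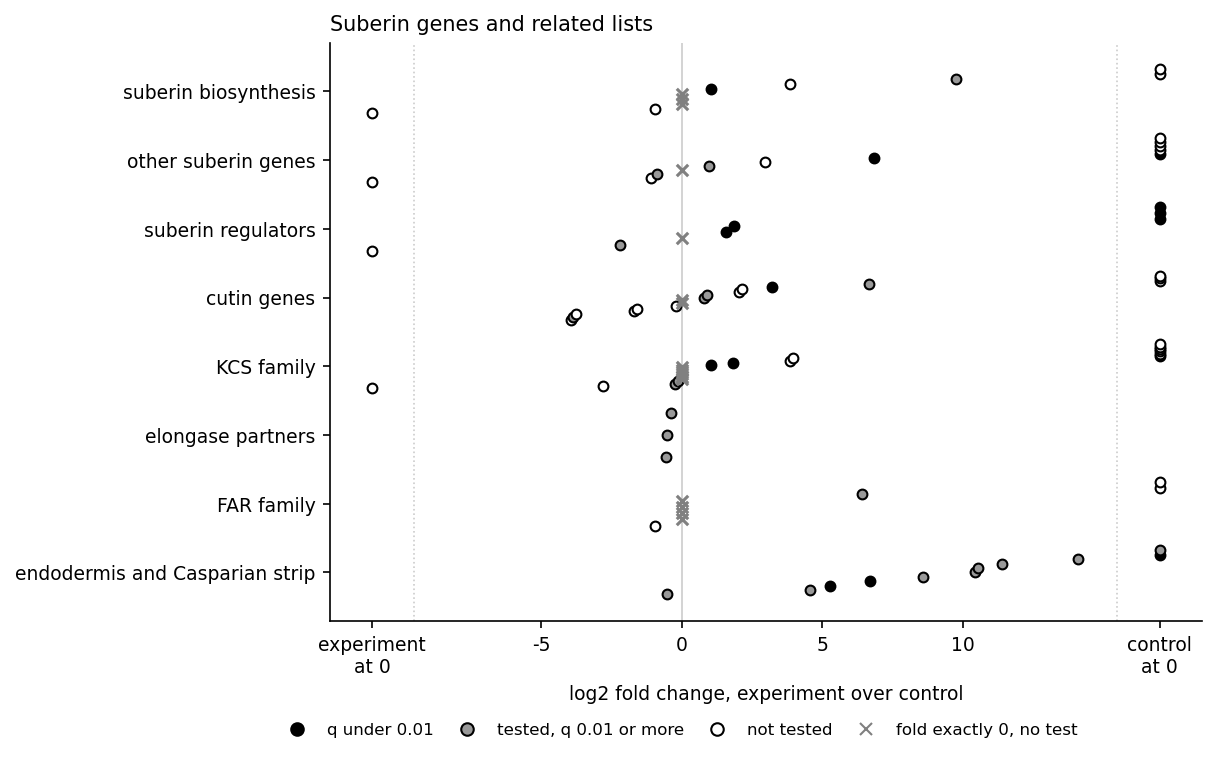
Log2 fold change, experiment over control, of each gene of the suberin list and of 7 related lists from the authors' deposited table, with genes listed at 0 in 1 condition at the edges. Black marks a q under 0.01, grey a tested gene above it, white no test, and a cross a fold of exactly 0 without a test. All 11 endodermal genes are tested points, against 2 of 10 suberin genes.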

How the data were processed

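Each of the 6 libraries is labelled with the same 2 comparisons, one of genes and one of isoforms. TopHat, Cufflinks and Cuffdiff with the TAIR10 genome are named in the submitters' processing notes; neither version nor setting is given in the sources used here. The log2 fold changes, p-values and q-values are those that the authors deposited, per the file headers. The 4 columns of condition values were not used, because no label ties a condition to a group. Recomputing Benjamini-Hochberg over tested loci gave the deposited q to within 4.9e-06 (genes) and 4.96e-06 (isoforms) in relative terms. The adjustment was tested on simulated data, and no test was added. Per the labels' protocols, cDNA was made by template switching, amplified and tagmented, which keeps no strand.

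The 10 members and all lists were chosen with earlier results of these data known. Named genes were all members, list genes with a q under 0.01 and, since ranking by level was not possible, up to 2 other tested genes per list with the widest finite fold. KCR1, SCR, MYB41, MYB107 and the overlapping genes were added after their values were seen, and 1 gene that the rule names is not reported here. All 96 list genes matched RefSeq TAIR10.1, from which sequences were read with Python 3.11.15 and Biopython 1.88.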

Additional observations from a re-analysis of the deposited data

How the results depend on the processing

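The 1 call among the 10 suberin genes stayed at 1 with a q under 0.05 and with adjustment over loci of 1 gene, and was 0 in the isoform comparison. The median log2 fold change of the members was 1.04 with the tested isoforms of KCS2 and ABCG6 in place of their gene values. Detected members numbered 7 at gene level and 7 at isoform level. In the other lists, run after seeing the data, some counts moved when genes were counted by a called isoform. Those higher in experiment went from 2 to 1 further suberin genes and from 3 to 1 endodermal genes. Root hair genes went from 4 to 2, KCS genes from 3 to 2, and cutin genes from 1 to 2. Mitosis genes lower in experiment went from 4 to 0, and root cap genes from 3 to 2. A q under 0.05 gave 2 elongase partners and 1 endodermal gene lower, where none was lower at a q under 0.01. It also took the endodermal genes called higher from 3 to 4. The cause was not tested. Single genes with a finite fold kept their direction except KCS5, at 0.088, and KCS11, at 0.83 in the isoform comparison. Alternatives that need condition values (added constants, minimum levels, summed isoforms) were not run. No paired analysis was possible because the comparisons hold no value per library, and for the same reason no replicate could be left out. Depth is unknown, so a listed 0 sets no limit.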

Other observations

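How often the authors' test called a rise depended on its size, which was looked at after the value of ASFT was seen. Of tested loci with a log2 fold change from 1 to under 3, 2256 of 3104 were called (72.7%) by Cuffdiff at a q under 0.01 in the authors' deposited table. From 3 to under 6, 780 of 1425 were called (54.7%), and from 6 to under 9, 68 of 361 were called (18.8%). At 9 or more, where ASFT, CASP1, CASP4 and CASP5 lie, 2 of 67 were called (2.99%). Of 535 tested loci listed at 0 in control, such as CASP2, KCS1 and MYB9, 466 were called (87.1%). The median q was 0.288 at 9 or more and 0.000177 for loci listed at 0 in control, both from the authors' deposited table. PER64 was listed at 0 in control and missed the threshold (Cuffdiff q = 0.166, the authors' deposited table), and its locus overlaps that of AT5G42190.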
